A study of Mus musculus with 36 samples.

Results

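Oxidative phosphorylation subunit genes encode the nuclear part of the 5 enzyme complexes of the mitochondrial inner membrane. They were taken as every gene whose symbol starts with Nduf (complex I), Sdh (complex II), Uqcr (complex III), Cox4 to Cox8 (complex IV) or Atp5 (complex V), with assembly factors of complex I left out. Of 19938 genes tested, 85 met this rule, with 35 in complex I, 8 in complex II, 8 in complex III, 17 in complex IV and 17 in complex V. The prefix also caught 4 assembly factors of complex II (Sdhaf1, Sdhaf2, Sdhaf3 and Sdhaf4), so that 81 of the 85 genes encode subunits. Ndufa4 is counted with complex I by its name, although its protein is known as a subunit of complex IV. Cox7c, Ndufb4, Ndufb4b and Ndufs5-ps were only on probe sets shared with other symbols, and the 13 subunits encoded in mitochondrial DNA had no probe set of their own under the rule used, so none of them was analysed here.

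The genes were measured in bone marrow cells of adult Balb/c mice that were grown into dendritic cells (DCs) over 6 days with granulocyte-macrophage colony-stimulating factor (100 ng/ml). Soluble human thrombomodulin (sTM), the free extracellular part of a receptor for thrombin, was added at 200 nM on day 4 to the treated cultures. The 36 Affymetrix arrays hold DCs sorted on magnetic beads with an antibody to thrombomodulin (TM) into TM+ and TM- DCs, with 4 arrays each from untreated and 6 arrays each from sTM-treated cultures, and unsorted DCs with 8 untreated and 8 treated arrays. Sorted arrays come from experiments 2, 3 and 4, untreated sorted arrays from experiments 3 and 4 alone, and unsorted arrays from experiments 1, 2 and 3. The sorted populations were more than 93% pure by the labels, and both are mixtures of cells from 1 kind of culture, not separate lines. Arrays of a group are biological replicates by their labels. The methods speak of independent experiments and of repeated tests on each culture, without saying if same-group arrays of 1 experiment came from separate cultures or mice, and every p-value is therefore one against the array-to-array spread, which may in part be technical. Values are log2 of the deposited intensities, and a change in the number of cells of a type cannot be told apart from a change in RNA per cell.

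The labelled cells and the sort were checked on their own genes. Itgax, the CD11c integrin chain of DCs, had log2 intensities of 11.72 to 12.35 over the arrays, and the class II genes H2-Aa and Cd74 had 11.47 to 12.89 and 11.80 to 12.89. Itgax, H2-Aa and Cd74 were higher in TM+ than in TM- DCs, by 0.28, 0.49 and 0.31 (limma adjusted p = 0.002196, 5.1e-05 and 0.006208). Of genes known from conventional DCs, Flt3 had 5.61 to 6.87 and its difference of -0.13 did not pass (limma adjusted p = 0.3072). Zbtb46 had 6.72 to 7.88 and was lower in TM+ DCs by -0.38 (SE 0.07, limma adjusted p = 0.0001419). Thbd, which encodes TM itself, had log2 intensities of 5.76 to 6.92 in the 10 TM+ arrays and 5.65 to 6.50 in the 10 TM- arrays. The ranges overlapped, and the difference of 0.24 (SE 0.12, limma adjusted p = 0.1199) did not pass the test.

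Electrons from NADH enter the respiratory chain at complex I and those from succinate at complex II. They pass through coenzyme Q to complex III and through cytochrome c to complex IV, which reduces oxygen. Complexes I, III and IV move protons across the inner membrane, and complex V, the ATP synthase, uses their return to make ATP. DCs are known to change their balance of respiration and glycolysis when they are activated.

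Promoters of these genes are known for binding sites of NRF1, GABPA, ESRRA and YY1, transcription factors that act on mitochondrial genes. RefSeq promoter windows (250 bases before to 50 after the start, build GRCm38.p6) were matched for 70 of the 85 genes, and 4 motifs were searched on both strands. The letters GCGCATGC of NRF1 stood in windows of 10 of the 70 genes (14.3%) and of 3.05% of the 27025 genes in the table. The letters AAGATGGCG of YY1 stood in 7 genes (10%) against 1.64%. TCAAGGTCA of ESRRA was in 2 genes (2.86% against 0.466%) and CCGGAAGTG of GABPA in 2 genes (2.86% against 2.25%). Shares among the tested genes alone, 15563 with a window, were 4.29% for NRF1, 2.29% for YY1 and 0.347% for ESRRA. For GABPA it was 3.26%, above the share of 2.86% in the 70 genes. At least 1 motif was found for 11 of the 31 genes with a window that were higher in TM+ DCs in the comparison described further on (35.5%) and for 10 of the other 39 (25.6%), and a match of letters is not evidence of binding.

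The 5 stretches that follow are the 100 bases before the start of genes that were higher in TM+ DCs. They are printed 5′ to 3′ on the strand of the gene to show where the letters lie, and capitals mark NRF1 letters on either strand, or ESRRA letters for Atp5g3. In Atp5g2 the NRF1 letters of both strands overlap, and in Ndufa8 they end at the last base before the start.
Atp5g2, chr15:102671048-102671147, minus strand: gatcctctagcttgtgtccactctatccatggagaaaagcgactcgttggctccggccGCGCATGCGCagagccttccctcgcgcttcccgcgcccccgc
Ndufa6, chr15:82354292-82354391, minus strand: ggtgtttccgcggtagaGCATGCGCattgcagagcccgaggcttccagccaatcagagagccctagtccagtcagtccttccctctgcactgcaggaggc
Ndufa8, chr2:36049339-36049438, minus strand: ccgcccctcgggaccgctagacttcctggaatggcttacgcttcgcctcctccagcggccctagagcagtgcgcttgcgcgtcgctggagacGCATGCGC
Sdhb, chr4:140961171-140961270, plus strand: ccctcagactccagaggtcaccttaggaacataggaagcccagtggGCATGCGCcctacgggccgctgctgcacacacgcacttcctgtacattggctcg
Atp5g3, chr2:73911327-73911426, minus strand: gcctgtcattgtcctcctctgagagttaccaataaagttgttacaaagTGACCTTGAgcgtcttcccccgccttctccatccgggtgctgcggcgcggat

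The YY1 letters lay at a common place. In 6 of the 7 windows of these genes that held them (85.7%) they stood on the gene's own strand 21 to 50 bases after the start, where 123 of 461 such windows of the whole table (26.7%) held them. The interval was not part of the planned search, so the shares describe where these letters lay and are no test. The 6 stretches of 30 bases show this place, with the YY1 letters in capitals. Ndufa9, Ndufs6 and Ndufs7 were higher in TM+ DCs, and Atp5j2, Ndufc1 and Ndufs4 did not pass the test.
Ndufa9, chr6:126849095-126849124, minus strand: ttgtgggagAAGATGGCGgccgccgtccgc
Ndufs6, chr13:73328433-73328462, minus strand: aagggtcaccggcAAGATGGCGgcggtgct
Ndufs7, chr10:80249469-80249498, plus strand: ggccAAGATGGCGgcgctggcgggtgagtg
Atp5j2, chr5:145191492-145191521, minus strand: ttcAAGATGGCGtcactcggtgagtactcg
Ndufc1, chr3:51408906-51408935, minus strand: acAAGATGGCGccgtccgtagtgctgcgct
Ndufs4, chr13:114388045-114388074, minus strand: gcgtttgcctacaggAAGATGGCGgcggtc

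The level of the whole module stood apart by experiment. In each array the median of the 85 genes was set against the median of all genes of that array. This difference was 2.37 to 2.74 on the log2 scale in the 12 arrays of experiment 3 and in arrays 3 and 4 of each group of experiment 1 (16 arrays together). It was 2.92 to 3.46 in the other 20 arrays, with no overlap. Between matched sorted groups, experiment 4 was above experiment 3 by a median of 0.41 over the 85 genes (70 of 85 above 0), while the median of all genes was -0.05. The gap was 0.76 in complex III and -0.02 in complex II, and it reached 2.06 for Atp5md and 1.55 for Ndufa1. Within unsorted experiment 1, arrays 3 and 4 were below arrays 1 and 2 by 0.42 in the median of the 85 genes, with all genes at 0.12, and correlations over all genes were 0.948 to 0.973 between these sets and 0.971 to 0.988 within them. In arrays 1 and 2 the summed linear intensity of cell division genes was 11029 to 20417 and that of granulocyte markers 21439 to 23764, and in arrays 3 and 4 they were 5020.4 to 5492 and 14553 to 15214, and their part in the difference was not tested. Of the sorted arrays, TM- DCs sTM 3-2 (experiment 3, array 2) correlated least with its own group (median r 0.950).

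**Figure D1:**
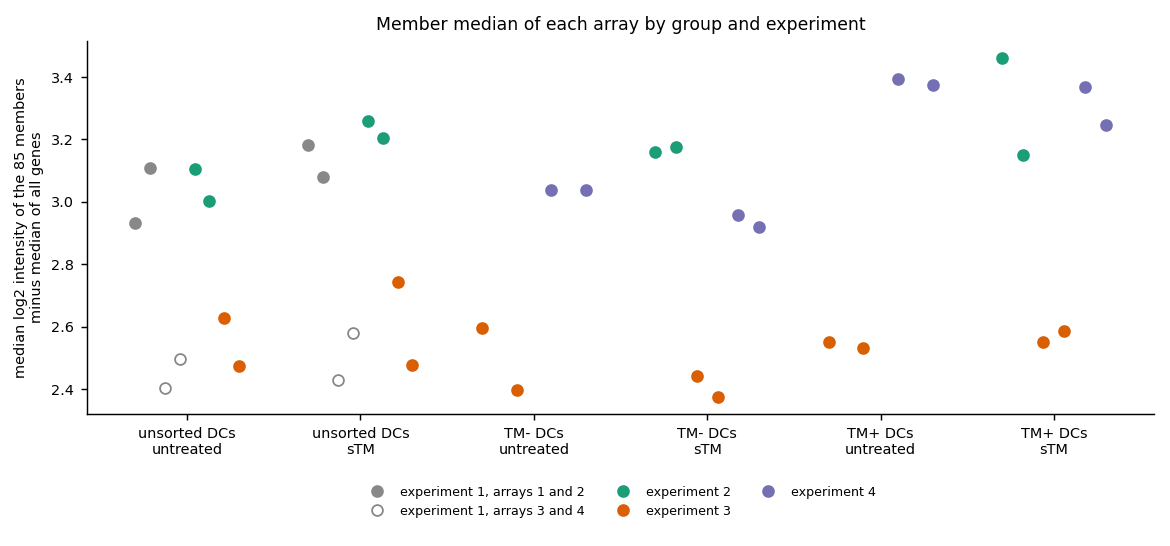
Median log2 intensity of the 85 genes minus the median of all genes (vertical axis), for each of the 36 arrays by group, coloured by experiment. Arrays of experiment 3 and arrays 3 and 4 of experiment 1 lie at 2.37 to 2.74 and the other arrays at 2.92 to 3.46, in sorted and in unsorted cells.

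TM+ DCs were compared with TM- DCs to find which genes separate the fractions, with treated and untreated cultures weighted equally. Of the 85 genes, 35 were higher in TM+ DCs and 4 were lower, at a limma adjusted p under 0.05. That is 41.2% higher, where 18.6% of all genes tested were higher and 18.7% were lower. The median difference was 0.21 on the log2 scale, that of all genes was -0.08, and 76 of the 85 genes lay above the median of all genes. Complex I held 18 of the 35, among them 5 of its 6 measured core subunits, and complex V held 9, among them every measured gene of its c ring and peripheral stalk. Complex IV held 2, Cox5a and Cox5b.

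Experiment 4 carried much of this count. Without it 3 genes were higher (Atp5g2, Cox7a1 and Ndufb11) and 0 lower, with 7.44% of all genes higher and 4.94% lower, and the median of the 85 genes was 0.12. Without experiment 3, 43 genes were higher and 6 lower, with 21.9% of all genes higher and 24% lower. Centring arrays on their 75th percentile gave 22 higher and 7 lower (15.9% and 36% of all genes), and quantile normalization 22 and 3 (16.9% and 15.8%). Weighting arrays by their quality gave 29 and 21 (26.9% and 33.8%). Leaving out the dimmest 25% of genes gave 38 and 5 of 84, where 25.3% of the 14953 genes kept were higher and 22.6% lower. A fit without an experiment term gave 10 and 2 (13.3% and 10.9%), or a share of genes higher below that of all genes. Of the 39 genes called, 9 kept their call in fewer than 20 of the 32 alternatives: Ndufs6 in 9, Uqcr11 in 10, Cox5b in 11, Ndufs7 and Cox8c in 14, Atp5a1 in 15, Ndufa4l2 in 16, Sdhc in 17 and Ndufv2 in 19.

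The fractions also differed in other gene groups. All 22 measured cell division genes were higher in TM+ DCs (median difference 2.05), and their summed linear intensity was 10971 to 36647 in TM+ and 4426 to 7537 in TM- arrays. Of markers of macrophages 8 of 12 were higher and 2 lower, with sums of 19557 to 24426 in TM+ against 16463 to 23926. Of markers of granulocytes 10 of 14 were higher and 1 lower, with sums of 19304 to 30914 against 16211 to 24588. Of markers of DCs 7 of 16 were higher and 8 lower (sums 24561 to 36376 against 26047 to 43968), and of mast cells, basophils and eosinophils 3 of 11 were higher and 2 lower (3360 to 5900 against 2018 to 6497). Erythroid markers (1 of 6 lower, 375 to 487 against 391 to 513) and lymphocyte markers (0 of 10 called, 464 to 627 against 519 to 719) had low sums in both fractions. The part of these groups in the differences of the respiratory genes was not tested.

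**Figure D2:**
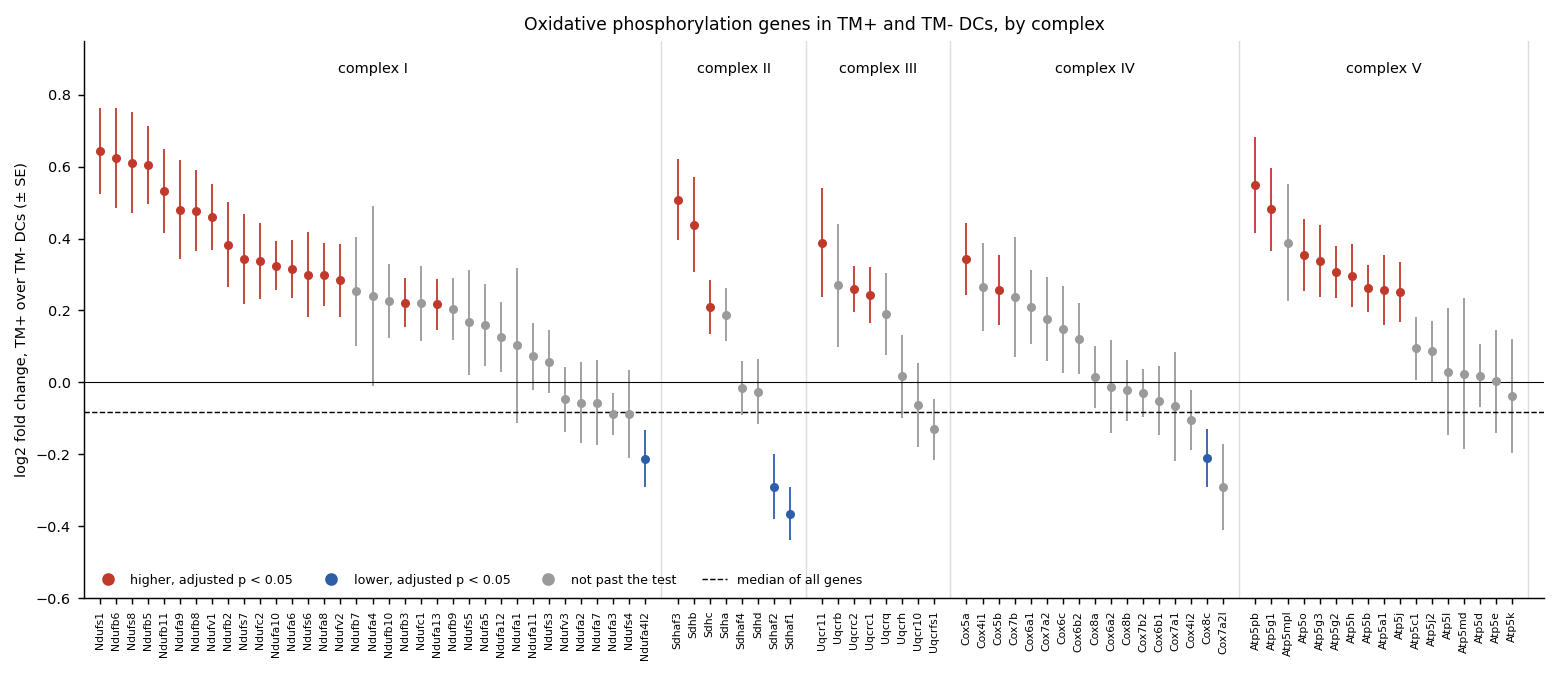
Difference in log2 intensity between TM+ and TM- DCs (limma estimate over 20 sorted arrays, with its standard error) for the 85 genes, ordered within each complex and marked by whether they passed the test, with the median of all genes (-0.08) dashed. Of the 35 genes that were higher, 18 stand in complex I and 9 in complex V, and 2 in complex IV.

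Complex I takes electrons from NADH through a peripheral arm of flavin and iron-sulfur subunits. Ndufs1 encodes the largest iron-sulfur subunit of that arm. Its log2 intensity in untreated cultures was 8.59 and 8.54 (experiment 3) and 9.37 and 9.17 (experiment 4) in TM+ DCs, and 8.37, 8.0, 8.29 and 8.15 in the matching TM- DCs. In sTM-treated cultures it was 8.56 to 9.71 (median 9.22) in TM+ and 8.13 to 9.21 (median 8.35) in TM- DCs. The untreated groups did not overlap and the treated groups did. Ndufs1 rose by 0.64 (SE 0.12, limma adjusted p = 0.000225), or 1.56-fold, and was higher in 10 of 10 pairs of arrays, each matched on experiment, treatment and array number. The array number is not known to mark a shared culture, so counts of pairs, here and further on, describe 1 of the possible matchings within an experiment.

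Ndufs8, another iron-sulfur subunit close to the membrane, had log2 intensities of 10.06, 10.15, 10.94 and 10.79 in untreated TM+ DCs and 9.51, 9.44, 9.98 and 10.11 in untreated TM- DCs. Treated arrays held 9.11 to 10.86 (median 9.82) in TM+ and 8.68 to 10.003 (median 9.63) in TM- DCs. Both pairs of groups overlapped, and the 2 TM+ arrays of experiment 4 stood highest among untreated arrays. The difference was 0.61 (SE 0.14, limma adjusted p = 0.001697), with 9 of 10 pairs higher. Ndufb6, an accessory subunit of the membrane arm, showed its difference mainly in experiment 4. It had 10.31, 10.15, 11.68 and 11.77 in untreated TM+ and 10.26, 10.03, 10.55 and 10.34 in untreated TM- DCs, and 9.91 to 11.47 (median 10.99) against 9.60 to 10.58 (median 10.42) after sTM. It rose by 0.62 (SE 0.14, limma adjusted p = 0.001357), and the mean differences were 0.57, 0.17 and 1.07 in experiments 2, 3 and 4.

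The other core subunits of complex I were mostly higher as well. Ndufv1, which binds NADH and the flavin, rose by 0.46 (SE 0.09, limma adjusted p = 0.000441), and its partner Ndufv2, an iron-sulfur subunit, by 0.28 (SE 0.10, adjusted p = 0.03362). Ndufs7, which carries the last iron-sulfur cluster before coenzyme Q, rose by 0.34 (SE 0.13, adjusted p = 0.03722). The call of Ndufs7 was lost with replicate blocks, all clusters, either other scaling and in 12 of the 20 fits that left out 1 array, among them each array of experiment 4, TM- sTM 2-1 and 2-2, untreated TM+ 3-1 and TM+ sTM 3-2. That of Ndufv2 was lost with replicate blocks, either other scaling and in 7 of those fits, without TM- sTM 2-1 or an array of experiment 4 other than TM- sTM 4-1 and 4-2, so that 3 of the 6 core subunits kept their call in these settings. Ndufs3, a core subunit without a cluster, differed by 0.06 (SE 0.09, adjusted p = 0.598) and did not pass. Of 28 accessory subunits 13 were higher and 0 lower, from Ndufb6 at 0.62 to Ndufa13 at 0.22. Ndufa4 did not pass (0.24, SE 0.25, adjusted p = 0.44), and Ndufa4l2, its paralog known from hypoxic cells, was lower by -0.21 (SE 0.08, adjusted p = 0.03947). The mean log2 intensity of Ndufa4l2 was 6.49, below the array medians of all genes (6.88 to 7.15), so its signal may be background.

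**Figure D3:**
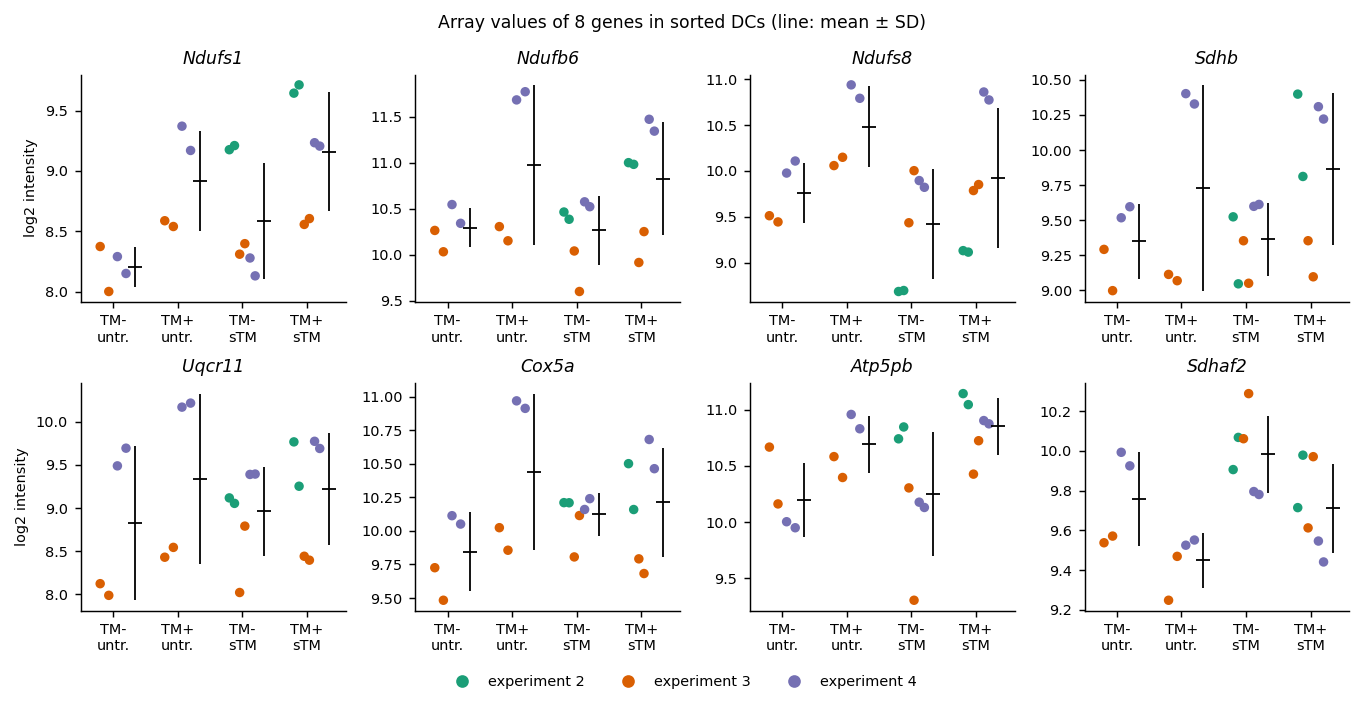
Log2 intensity of Ndufs1, Ndufb6, Ndufs8, Sdhb, Uqcr11, Cox5a, Atp5pb and Sdhaf2 in each of the 20 sorted arrays by group, coloured by experiment, with the mean and SD of each group as a line. For Ndufb6, Uqcr11 and Cox5a the untreated TM+ arrays of experiment 4 (11.68 and 11.77, 10.17 and 10.22, 10.97 and 10.91) stand above all other untreated sorted arrays, and Sdhaf2 was lower in TM+ DCs in 10 of 10 pairs.

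Complex II oxidises succinate and is the one complex with all subunits encoded in the nucleus. Sdhb, its iron-sulfur subunit, had log2 intensities of 9.11, 9.07, 10.40 and 10.33 in untreated TM+ DCs and 9.29, 9.0, 9.52 and 9.60 in untreated TM- DCs, and 9.10 to 10.40 (median 10.02) against 9.05 to 9.61 (median 9.44) after sTM. Groups overlapped in both kinds of culture. Sdhb rose by 0.44 (SE 0.13, limma adjusted p = 0.01218), but by experiment its mean differences were 0.82, -0.02 and 0.73 in experiments 2, 3 and 4. Sdhc, a membrane anchor, had 10.02, 10.03, 10.35 and 10.40 against 9.82, 9.67, 9.97 and 10.10 in untreated cultures, and 9.91 to 10.72 (median 10.09) against 9.84 to 10.55 (median 10.03) after sTM. Overlapping groups and a small shift gave a rise of 0.21 (SE 0.08, limma adjusted p = 0.03511). Sdha, the flavoprotein, was higher in all untreated TM+ arrays, yet its difference of 0.19 (SE 0.07, limma adjusted p = 0.0515) just missed the threshold, and Sdhd, the other anchor, differed by -0.03.

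The assembly factors of complex II moved in opposite directions. Sdhaf3, which helps to insert the iron-sulfur clusters of Sdhb, had 8.05, 8.16, 8.05 and 7.89 in untreated TM+ and 7.61, 7.78, 7.19 and 7.18 in untreated TM- DCs, without overlap, and 6.94 to 8.19 (median 7.94) against 6.84 to 7.91 (median 7.27) after sTM. It rose by 0.51 (SE 0.11, limma adjusted p = 0.001256) and was higher in 10 of 10 pairs. Sdhaf1, which also serves the clusters of Sdhb, had 8.0, 8.21, 8.35 and 8.17 in untreated TM+ and 8.67, 8.73, 8.90 and 8.86 in untreated TM- DCs, again without overlap, while treated arrays overlapped at 8.17 to 8.61 (median 8.40) and 8.05 to 8.83 (median 8.52). It was lower over all sorted arrays by -0.36 (SE 0.07, limma adjusted p = 0.000574). Sdhaf2, which attaches the flavin to Sdha, had 9.25, 9.47, 9.53 and 9.55 against 9.54, 9.57, 9.99 and 9.92, and 9.44 to 9.98 (median 9.66) against 9.78 to 10.29 (median 9.98) after sTM. Its groups overlapped slightly, it was lower in 10 of 10 pairs, and its difference was -0.29 (SE 0.09, limma adjusted p = 0.01495). Sdhaf4 differed by -0.02 on the probe set tested and by 0.53 on its other probe set, so its direction is uncertain.

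Complex III passes electrons from coenzyme Q to cytochrome c. Its core proteins Uqcrc1 and Uqcrc2 rose with small errors, and more in experiment 4 (mean differences 0.40 and 0.42) than in experiment 3 (0.11 and 0.15) or 2 (0.15 and 0.15). Uqcrc2 had 11.79, 11.81, 11.88 and 11.77 in untreated TM+ and 11.62, 11.60, 11.55 and 11.45 in untreated TM- DCs, with 11.44 to 11.98 (median 11.61) against 11.22 to 11.50 (median 11.45) after sTM, and rose by 0.26 (SE 0.06, limma adjusted p = 0.002557) in 10 of 10 pairs. Uqcrc1 had 10.58, 10.55, 10.71 and 10.70 against 10.43, 10.48, 10.18 and 10.30, with 10.46 to 11.07 (median 10.68) against 10.13 to 10.86 (median 10.57) after sTM, and rose by 0.24 (SE 0.08, adjusted p = 0.01901). For both, untreated groups did not overlap. Uqcr11, a small subunit, had 8.43, 8.54, 10.17 and 10.22 against 8.12, 7.99, 9.49 and 9.70, with 8.39 to 9.78 (median 9.47) against 8.02 to 9.39 (median 9.09) after sTM. The experiments stood further apart than the fractions, and the rise of 0.39 (SE 0.15, limma adjusted p = 0.04778) was close to the threshold. Uqcrfs1, the Rieske iron-sulfur subunit, differed by -0.13 (SE 0.08, adjusted p = 0.2185).

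Complex IV had a median difference of 0.02 over its 17 genes, beside -0.08 for all genes. The 10 general subunits had a median of 0.19 and the 7 tissue isoforms of -0.03, where complex I had 0.24. Its catalytic centre is encoded in mitochondrial DNA, and the genes measured here are the nuclear subunits around it. Cox5a and Cox5b, which cap the matrix side, were the genes of complex IV called higher, and they are named after their values were seen, since each was higher in 7 of 10 pairs. Cox5a had 10.02, 9.86, 10.97 and 10.91 in untreated TM+ and 9.73, 9.48, 10.11 and 10.05 in untreated TM- DCs, with 9.68 to 10.68 (median 10.31) against 9.81 to 10.24 (median 10.18) after sTM. Groups overlapped, and it rose by 0.34 (SE 0.10, limma adjusted p = 0.009853). Cox5b had 11.05, 11.50, 11.82 and 11.78 against 11.30, 11.54, 11.28 and 11.25, with 11.08 to 12.09 (median 11.73) against 11.28 to 11.58 (median 11.31) after sTM, and rose by 0.26 (SE 0.10, adjusted p = 0.04248). That call was lost with replicate blocks and in 14 of the 20 fits that left out 1 array, among them each array of experiments 2 and 4, untreated TM+ 3-2 and TM+ sTM 3-2. In Cox5b both untreated pairs of experiment 3 were lower in TM+ DCs.

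Several subunits of complex IV have paralogs used in particular tissues, and of the 7 such isoforms 0 were higher and 1 was lower. Cox8c, an isoform known from testis, was lower by -0.21 (SE 0.08, limma adjusted p = 0.0458). Its mean log2 intensity of 7.05 lay within the array medians of all genes (6.88 to 7.15), so its signal may be background. Differences that did not pass were 0.26 for Cox4i1 and -0.10 for Cox4i2, 0.21 for Cox6a1 and -0.01 for Cox6a2, and -0.05 for Cox6b1 and 0.12 for Cox6b2. They were 0.18 for Cox7a2 and -0.07 for Cox7a1, 0.24 for Cox7b and -0.03 for Cox7b2, and 0.02 for Cox8a and -0.02 for Cox8b. Cox4i1 was higher in 10 of 10 pairs without passing (adjusted p = 0.0927), and Cox7a2l, a relative of Cox7a2 that joins complexes III and IV, was lower in 10 of 10 pairs without passing (-0.29, SE 0.12, adjusted p = 0.0597). Levels of paralogs were not set against each other, since they were read by different probes. Ndufa4l2 of complex I, which was lower, was counted as a tissue isoform too, so that 2 of 8 such isoforms were lower. Over the 73 subunits left without these 8, 34 were higher and 0 lower, where 18.6% of all genes were higher and 18.7% lower.

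**Figure D4:**
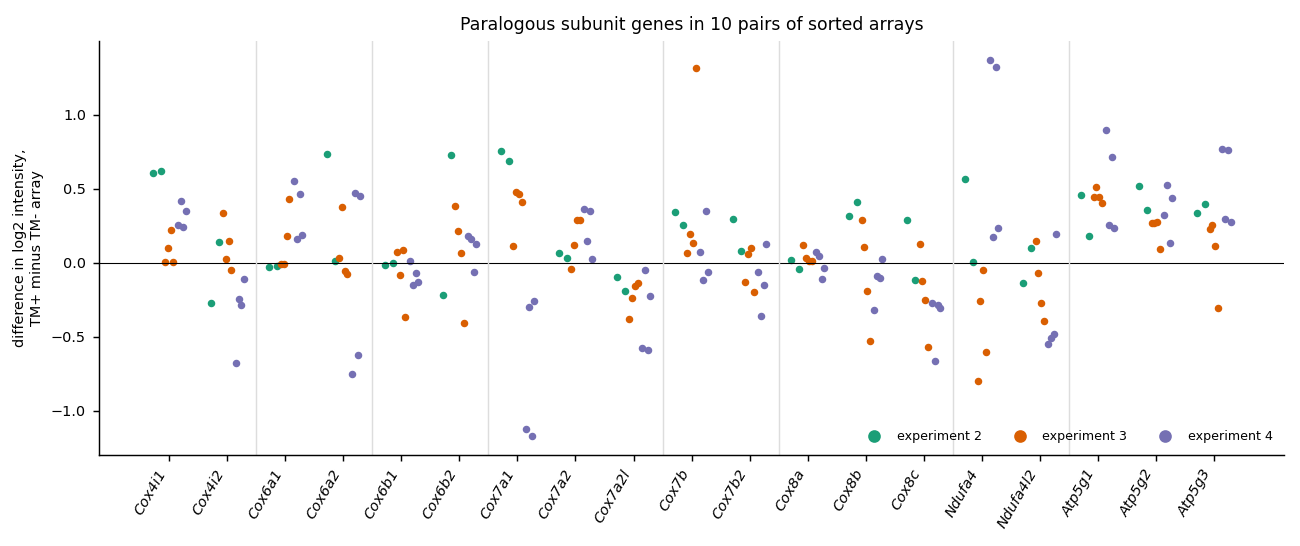
Difference in log2 intensity, TM+ minus TM-, for paralogous subunit genes in 10 pairs of matched arrays, coloured by experiment. The 3 genes of the c subunit of complex V lie mostly above 0, while Cox7a1 and Ndufa4 lie on opposite sides of 0 in experiments 3 and 4.

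Complex V makes ATP in its F1 head, driven by a turning c ring, with a peripheral stalk that holds the head still. The stalk and ring genes were called higher throughout. Atp5pb, the b subunit of the stalk, had 10.58, 10.40, 10.96 and 10.83 in untreated TM+ and 10.67, 10.16, 10.004 and 9.95 in untreated TM- DCs, with 10.43 to 11.14 (median 10.89) against 9.31 to 10.85 (median 10.24) after sTM. It rose by 0.55 (SE 0.13, limma adjusted p = 0.002532). Groups overlapped, since the first untreated TM- array of experiment 3 (10.67) lay above both TM+ arrays of that experiment. Atp5o, which joins the stalk to the head, had 9.61, 9.58, 10.62 and 10.54 against 9.55, 9.29, 9.98 and 9.99, with 9.59 to 10.57 (median 10.24) against 9.41 to 9.95 (median 9.90) after sTM, and rose by 0.35 (SE 0.10, adjusted p = 0.008624). The other stalk genes, Atp5h and Atp5j, rose by 0.30 and 0.25.

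Atp5g1, Atp5g2 and Atp5g3 encode the same mature c subunit behind different import sequences. Atp5g1 had 11.47, 11.50, 12.17 and 12.14 in untreated TM+ and 11.03, 11.05, 11.28 and 11.43 in untreated TM- DCs, with 10.31 to 11.61 (median 11.34) against 9.92 to 11.36 (median 10.88) after sTM. Untreated groups did not overlap and treated groups did, and the rise was 0.48 (SE 0.12, limma adjusted p = 0.002374). Atp5g2 rose by 0.31 (SE 0.07, adjusted p = 0.002087) and Atp5g3 by 0.34 (SE 0.10, adjusted p = 0.01129). Atp5g1 and Atp5g2 were higher in 10 of 10 pairs and Atp5g3 in 9. Of the F1 head, Atp5b and Atp5a1, its beta and alpha subunits, both rose by 0.26 (adjusted p = 0.003379 and 0.04168), and the other 3 F1 genes did not pass. None of the 5 genes of the remaining membrane part was called by limma, although Atp5mpl differed by 0.39.

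The difference was seen in both kinds of culture, each with fewer calls. In untreated cultures limma called 14 of the 85 genes higher and 1 lower, where 13.2% of all genes were higher and 7.93% lower, and the median was 0.21 against -0.06 for all genes. In sTM-treated cultures it called 14 higher and 0 lower (2 lower at an unadjusted p under 0.05), where 11.6% of all genes were higher and 12.4% lower, and the median was 0.16 against -0.09. The share of these genes called higher, 16.5% in each, was close to that of all genes. All TM+ arrays stood above all TM- arrays in untreated cultures for 13 genes (12.7% of all genes did so) and below them for Sdhaf1, and in treated cultures for Ndufa6 alone (3.28% of all genes). Without experiment 4, 0 genes were higher in untreated and 2 in treated cultures (3.78% and 5.7% of all genes). Leaving out single arrays of experiment 4 brought the counts down to 6 without untreated TM- 4-1 or TM+ 4-1, 7 without TM+ 4-2 and 8 without TM- 4-2 in untreated cultures (9.1% to 10.2% of all genes), and to 6 without TM+ sTM 4-1 and 8 without TM- sTM 4-2 or TM+ sTM 4-2 in treated cultures (8.69% to 9.56% of all genes). With blocks by replicate number, 7 genes were higher in each kind of culture (11.3% of all genes in untreated and 9.97% in treated ones).

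Read pair by pair, 15 of the 85 genes were higher in TM+ DCs in 10 of 10 pairs, which 8.26% of all genes were. Another reading by experiment showed where the pairs differed. In experiment 2 the median difference was 0.18 (all genes -0.03), and 50 genes were higher in both pairs (32.5% of all genes). In experiment 3 it was 0.07 (all genes -0.05), and 22 genes were higher in all 4 pairs (13.5% of all genes). In experiment 4 it was 0.31 (all genes -0.12), and 54 genes were higher in all 4 pairs (27.0% of all genes). Complexes did not move alike in experiment 4, where complex I had medians of 0.46 without and 0.33 with sTM and complex IV had -0.02 and 0.0. Complex IV counts its 7 tissue isoforms here, whose mean differences in experiment 4 ran from -0.71 (Cox7a1) to 0.10 (Cox6b2). Those of its 10 general subunits ran from -0.36 (Cox7a2l) to 0.62 (Cox5a). In experiment 2 the median of complex IV was 0.19 and that of complex I was 0.27.

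**Figure D5:**
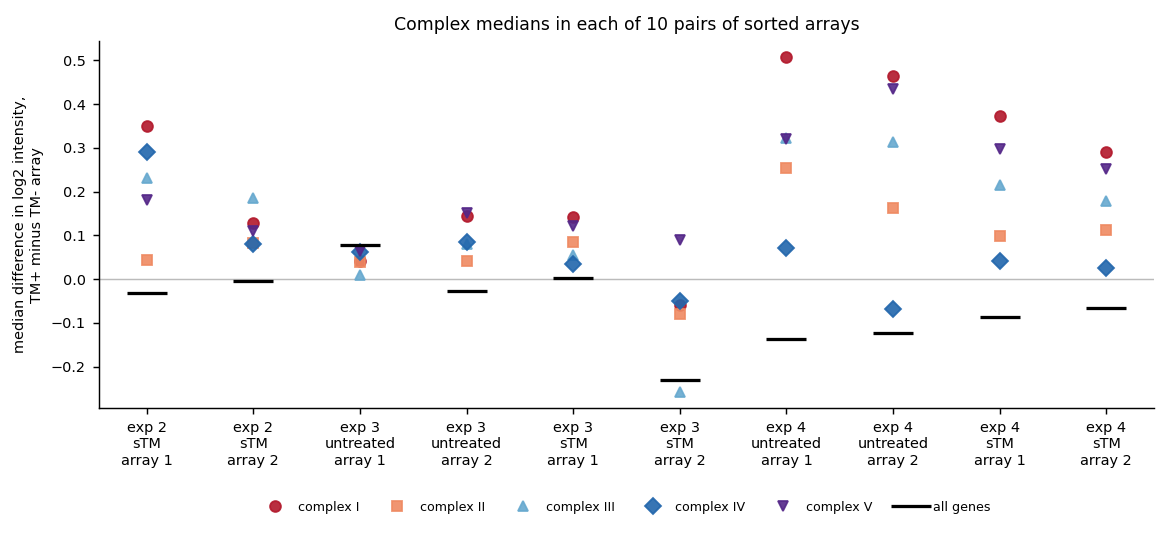
Median difference in log2 intensity, TM+ minus TM-, for the genes of each complex and for all genes in each of the 10 pairs of sorted arrays, grouped by experiment. The 4 pairs of experiment 4 have medians over the 85 genes of 0.24 to 0.35, the 4 pairs of experiment 3 of -0.06 to 0.12.

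Soluble TM was tested next, for whether it altered these genes. In sorted DCs limma called 0 of the 85 genes (0.015% of all genes were called). At an unadjusted p under 0.05, 2 were higher and 3 lower, beside 1075 and 532 of all 19938 genes. Differences of the 85 genes ran from -0.33 to 0.25 with a median of -0.02. The smallest p was that of Ndufb3, an accessory subunit of complex I, at -0.21 (SE 0.07, limma adjusted p = 0.3687), followed by Uqcrfs1 at 0.24 (SE 0.09, adjusted p = 0.4266). Weighting arrays by quality called 1 gene higher (Uqcrfs1), where 4.25% of all genes were higher and 4.98% lower. Leaving out experiment 4 called 1 higher (Sdhaf2), where 1.53% of all genes were higher and 0.747% lower. Medians of the 85 genes were -0.05 in TM+ and 0.01 in TM- DCs of experiment 3, and -0.08 and -0.02 in experiment 4. Sorted arrays of experiment 2 come from treated cultures alone, so the fitted differences in part carry differences between experiments. The fitted median of -0.02 was -0.05 with a fixed experiment factor and 0.01 without an experiment term.

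Whether sTM acted differently in the fractions was tested by the interaction, the effect in TM+ DCs minus that in TM- DCs. Sorted arrays of experiment 2 enter its treated side alone, so the interaction too in part carries differences between experiments. Its median over the 85 genes was -0.04, and -0.05 without experiment 2. Limma called 0 of the 85 genes (0.01% of all genes). At an unadjusted p under 0.05, 4 were higher and 4 lower, beside 514 and 713 of all 19938 genes. Sdhaf1 had an interaction of 0.49 (SE 0.15, limma adjusted p = 0.4099) and Ndufv3, a small subunit beside the NADH site, 0.49 (SE 0.18, adjusted p = 0.5966). Without experiment 3, Cox6a2 and Cox7a1 were called higher, where 0.582% of all genes were higher and 0.923% lower.

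In unsorted DCs limma called 0 of the 85 genes after sTM (0% of all genes). At an unadjusted p under 0.05, 1 was higher and 0 lower, beside 389 and 551 of all 19938 genes. The median difference was 0.10 against 0.01 for all genes, and 67 of the 85 genes were above 0. Cell division genes had a median of 0.29 (21 of 22 above 0) and granulocyte markers of 0.30 (12 of 14 above 0, 6 higher at an unadjusted p under 0.05), and their part in the shift was not tested. Cox7a1 had the smallest p at 0.28 (SE 0.11, limma adjusted p = 0.9895), then Uqcrq, a small subunit of complex III, at 0.22 (SE 0.11, adjusted p = 0.9995). By experiment the medians were 0.07, 0.17 and 0.11 in experiments 1, 2 and 3. Within experiment 1 they were 0.21 for arrays 1 and 2 and -0.04 for arrays 3 and 4. In simulated data for this comparison, 2.99% of genes changed by 0.25 were called, so 0 calls do not show that small changes are absent.

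Other genes of mitochondrial metabolism were counted between TM+ and TM- DCs, from lists written with general knowledge, and every gene named from them passed the test. Of 17 genes of the tricarboxylic acid cycle and pyruvate dehydrogenase 12 were higher and 0 lower (median 0.27), with Idh3a at 1.09, Fh1 at 0.93 and Idh3g at 0.81. Of 37 assembly factors of the complexes 12 were higher and 3 lower (median 0.14), with Bcs1l, needed for the Rieske subunit, at 0.83, Ndufaf4 at 0.65, and Cox17, a copper chaperone, at -0.54. Of 25 genes for electron carriers, coenzyme Q synthesis and nucleotide exchange 9 were higher and 3 lower (median 0.16), led by Etfb at 0.71 and Slc25a5, an ADP/ATP carrier, at 0.63. Of 77 mitochondrial ribosomal protein genes 34 were higher and 3 lower (median 0.27).

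Among 20 regulators of mitochondrial biogenesis 11 were higher and 2 lower (median 0.27). The transcription factor Myc differed by 2.29, Lrpprc, which stabilises mitochondrial mRNA, by 1.20, and Tfam, which packs mitochondrial DNA, by 0.91, while the coactivator Ppargc1a was lower by -0.34. Of 18 glycolysis genes 5 were higher and 5 lower (median -0.13), and the changes with the largest size were -1.45 for Pfkfb3, -0.63 for Hk2 and -0.58 for the glucose carrier Slc2a1. These counts stand beside 18.6% of all genes higher and 18.7% lower, and all come from the comparison of sorted DCs in which the cell division genes differed too.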

How the data were processed

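RNA of 36 samples was hybridized to Affymetrix Mouse Gene 1.0 ST arrays. The authors corrected, normalized and summarized the probes with RMA and deposited intensities on a linear scale, and the sources used here do not say if 1 run of RMA covered every array. No detection calls were applied, so a low value may be background. Precision is limited by the small number of arrays.

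Log2 was taken of the deposited intensities. Of 35556 transcript clusters, those with 1 symbol were kept (21789), and the cluster with the highest mean was tested for each of 19938 symbols. Sorted DCs (20 arrays) were fitted with sorting, treatment and their interaction, and unsorted DCs (16 arrays) with treatment, each with experiment as a random block (limma 3.58.1, statmod 1.5.0, R 4.3.3; correlations 0.396 and 0.375). Tests were two-sided, with Benjamini-Hochberg adjustment over all symbols and a threshold of 0.05, and were tested on simulated data. There, 67 of 19938 genes were changed by 0.25 on the log2 scale, 67 by 0.5 and 66 by 1, alike in every experiment. For sorting, 16.4% of those changed by 0.25 and 85.1% of those changed by 0.5 were called. For sTM in unsorted DCs the shares were 2.99% and 52.2%. The measured sorting comparison called 7438 genes and varied by experiment, so its recovery may differ from the simulated shares. Recovery was not simulated for sTM in sorted DCs or for the interaction.

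The genes and lists were chosen with earlier results of these data known. In each complex, up to 3 genes that rose and 3 that fell most past the test and in at least 9 of 10 pairs were given by array, with core subunits, paralogs, assembly factors and the smallest p for sTM named beside them. Alternatives were a fixed or no experiment term, replicate blocks, a filter on dim genes, all clusters, 75th percentile centring, quantile normalization, trended variances, array weights and leaving out arrays or experiments. Figures used Python 3.11.15 with matplotlib 3.10.9.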

Additional observations from a re-analysis of the deposited data

Results flagged for a closer look

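Within groups of 4 to 8 arrays, 126 groups of values were tested for an array apart from the others, and chance flags about 1 in 20 such groups. The array TM- DCs sTM 3-1 stood apart for 2 genes, with a log2 intensity of 9.41 for Atp5o where the other 5 arrays of its group had 9.87 to 9.95, and of 9.81 for Cox5a where they had 10.11 to 10.24. These groups pool experiments, so the rule cannot tell an odd array from a difference between experiments. Within experiment 3, the untreated TM- arrays had 9.55 and 9.29 for Atp5o and 9.73 and 9.48 for Cox5a. TM- DCs sTM 3-2 had 9.89 and 10.11, so that 3-1 lay among the TM- arrays of its own experiment. The genes named with values were also compared between untreated and treated cultures and between experiments 3 and 4, in 92 comparisons together. In these, 2 genes differed between TM+ and TM- DCs in opposite directions in every pair of the 2 experiments. Cox7a1 was higher in TM+ DCs by 0.37 in experiment 3 and differed by -0.71 in experiment 4. Ndufa4 differed by -0.43 in experiment 3 and was higher by 0.78 in experiment 4. Ndufc1, which was not among the genes compared, turned as well. It was higher in 0 of 4 pairs of experiment 3 (mean -0.09) and in 4 of 4 of experiment 4 (mean 0.47). These differences between experiments were not tested.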

How the results depend on the processing

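The median of the 85 genes lay above that of all genes for TM+ against TM- DCs in every alternative run, by 0.14 to 0.41 where the reported value was 0.29. The number of genes called moved more, and the cause was not tested except where fewer arrays were fitted. Counts of genes higher and lower (35 and 4 reported, beside 18.6% and 18.7% of all genes) were 10 and 2 without an experiment term (13.3% and 10.9% of all genes), 22 and 7 after centring on the 75th percentile (15.9% and 36%), which moved the median of all genes from -0.08 to -0.16, 22 higher after quantile normalization (16.9%), 2 lower with all transcript clusters (13.4%), 21 lower with array weights (33.8%), and 3 and 0 without experiment 4 (7.44% and 4.94%). Leaving out 1 array gave 25 to 37 higher and 2 to 5 lower. In untreated cultures (14 and 1) the counts were 27 and 2 with a fixed experiment factor (15% and 9.27% of all genes), 2 higher without an experiment term (7.76%), 2 lower after centring (11.7%), 19 lower with array weights (23.9%), 2 lower without experiment 2 (8.44%), 31 and 7 without experiment 3 (17.9% and 13.7%) and 0 and 0 without experiment 4 (3.78% and 2.82%), and 6 to 19 higher and 1 to 2 lower without 1 array. In treated cultures (14 and 0) they were 2 higher without an experiment term (6.32%), 2 lower after centring (18.6%), 9 and 1 after quantile normalization (10.9% and 9.9%; median minus that of all genes 0.14), 3 lower with array weights (18.8%), 8 and 1 without experiment 2 (9.02% and 9.22%), 24 higher without experiment 3 (15.4%) and 2 higher without experiment 4 (5.7%), and 6 to 16 higher and 0 to 1 lower without 1 array. For sTM in sorted DCs 1 gene was called higher with array weights (4.25% of all genes) and 1 without experiment 4 (1.53%). For the interaction without experiment 3, 2 were called higher (0.582% of all genes).

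Of the 39 genes called, 1 (Atp5g2) was called under all 32 alternatives, 20 under all but 1 to 3, and 9 under fewer than 20. The estimate changed sign in at least 1 alternative for 36 of the 85 genes, 2 of them among the 39 called, and 10 genes passed the test in the direction opposite to the reported one. Among the genes named with values, such turns that touched a call were 0.28 for Cox6a2, -0.22 for Cox7a2 and -0.11 for Uqcr11 with array weights, and 0.44 for Cox7a1 without experiment 4.

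Replicate numbers did not meet the limit set for pairing, a correlation above 0.1 in every pair of groups. Deviations of same-numbered sorted arrays correlated at -0.52 to 0.32 (8 of 13 above 0.1), with all 6 of experiment 4 at 0.12 to 0.27, and those of unsorted arrays at 0.01 to 0.60 (4 of 6 above 0.1). With blocks by replicate number 27 genes were higher and 4 lower (17% and 17.2% of all genes), and 7 were higher in untreated (11.3%) and 7 in treated cultures (9.97%). For unsorted DCs, 3 alternatives chosen after seeing the data, which treat arrays 1 and 2 of experiment 1 apart from arrays 3 and 4, called 0 of the 85 genes.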
